A study of Homo sapiens with 6 samples.

Results

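Long noncoding RNAs (lncRNAs) are transcripts longer than most small RNAs that do not code for a known protein. Here the 149 most abundant of them in K562 cells, an established leukaemia line that the labels describe as erythroleukaemia, were followed from vehicle to treatment. They were the rows typed as lncRNA whose mean over the 3 vehicle libraries was at least 5 FPKM (fragments scaled to transcript length and library size), taken from 14763 lncRNA rows among 46427 genes. The level was reached by 172 rows, and 23 were set aside by symbol, namely the SNHG family and GAS5, ZFAS1, RMRP, RPPH1, RN7SK and BCYRN1. The 6 libraries came from wild-type cells given 0.1% DMSO (vehicle, 3 libraries) or HR-19011 at 10 µM (3 libraries), each for 24 h. HR-19011 is a compound whose series title links it to the integrated stress response, a programme in which phosphorylated eIF2α slows general translation. The DMSO percentage of the treated libraries is not stated in the labels. Nor do they say whether a group's libraries are from separate cultures. The p-values therefore measure only the spread between these libraries, which may be technical.

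LncRNAs act in several ways. Some build nuclear bodies, as NEAT1 does for paraspeckles, and some bind many copies of an RNA-binding protein, as NORAD does for the Pumilio proteins. Others are precursors from which microRNAs or small nucleolar RNAs are cut, and many start beside or opposite a coding gene and share its chromatin. Most are spliced, capped and polyadenylated like messenger RNA, but MALAT1 and the long form of NEAT1 end without a poly(A) tail, so libraries made from polyadenylated RNA, as here, take them up only in part.

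The labelled cell type was checked first. All 11 erythroid markers were above 1 FPKM in vehicle, from EPOR at 9.06 FPKM to HBG2 at 4386 FPKM, and of 9 markers of other blood cells only PTPRC and LYZ were above 1 FPKM, with MS4A1 and NCAM1 listed at 0. Of 3 megakaryocytic markers, ITGA2B was at 2.31 FPKM and PF4 and GP9 were listed at 0. Several marker levels differed with HR-19011. Mean FPKM in vehicle and with HR-19011 was 79.9 and 11.4 for KLF1, 114 and 20.4 for NFE2, and 141 and 73.1 for GATA1. It was 556 and 159 for HBZ, 10.3 and 20.7 for PTPRC, and 2.31 and 3.67 for ITGA2B. Others differed less, with the erythroid markers TAL1 at 31.3 and 32.0 and TFRC at 151 and 135 FPKM, and LYZ at 11.6 and 12.8 FPKM. In bulk RNA, fewer cells of a type and less RNA per cell cannot be told apart, and the part of these shifts in the values below was not tested. Correlations between libraries on log values over tested genes were 0.997 to 0.998 within groups and 0.891 to 0.894 between groups. Depth is unknown because no read counts were used here, and the summed FPKM of all genes differed between groups (461938 ± 5487 in vehicle, 423885 ± 3632 with HR-19011, SD, n = 3). Transcripts of the mitochondrial genome took 20.6% ± 0.564 of that sum in vehicle and 14.2% ± 0.221 with HR-19011, and the part of this shift in the values below was not tested.

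The abundant lncRNAs moved in both directions after HR-19011. With limma on log2(FPKM + 1) over 11856 tested genes and an adjusted p under 0.05, 55 of the 149 rose, 72 fell and 22 did not pass. Of all tested genes, 84.4% passed, 46.4% as higher and 38.0% as lower, and of the 149 lncRNAs 85.2% passed, 36.9% as higher and 48.3% as lower. Their median log2 fold change was -0.11, with quartiles at -0.65 and 0.40 and a range from -2.25 to 2.73, beside 0.07 for all tested genes. Coding genes chosen by the same vehicle minimum gave close values: of 7085, 36.5% rose and 50.2% fell, with a median of -0.11. Tested lncRNAs under that minimum differed in direction, with 328 of 508 higher, 64 lower and a median of 0.44. At most 380 of these 508 had a vehicle mean of 1 FPKM or more. Testing needed a mean of at least 1 FPKM over 6 libraries. The others met this only through HR-19011, so their direction was fixed by that filter. The vehicle libraries that chose the 149 are also 1 arm of each of these comparisons, and the split follows the arm used for choosing. Among the 196 lncRNAs with an HR-19011 mean of at least 5 FPKM, 134 rose and 41 fell.

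Groups of 3 did not overlap for 128 of the 149 lncRNAs, 55 of them higher and 73 lower, where 85.2% of all tested genes did not overlap. A log2 change of at least 1 in either direction, together with the adjusted p, was met by 8 that rose (12.0% of all tested genes) and 21 that fell (6.45% of all tested genes). Of the 7085 coding genes at 5 FPKM or more in vehicle, 472 rose and 569 fell by as much. Scaling moved the split. Under TMM, a scaling that sets the trimmed mean change between libraries to 0, 43 lncRNAs were higher and 95 lower, while for all tested genes the counts were 4043 higher and 6045 lower. The median change of all tested genes was 0.07 as deposited, -0.15 under TMM and 0.19 as TPM (values rescaled to 1 total in each library), and that of the 149 lncRNAs was -0.11, -0.35 and -0.00, below the median of all genes each time.

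**Figure D1:**
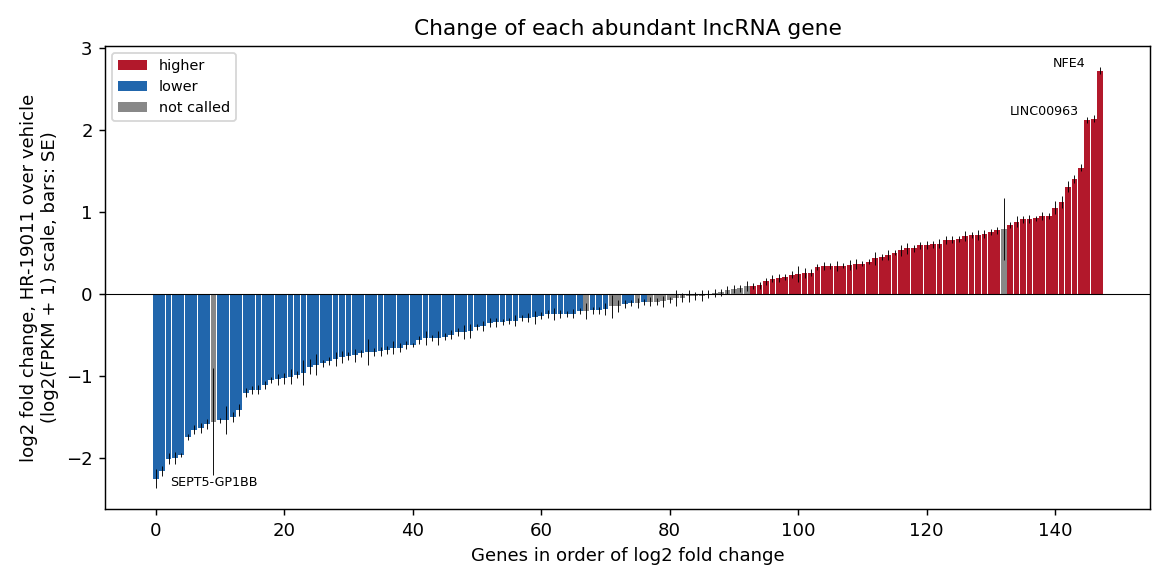
Log2 fold change of HR-19011 over vehicle on the log2(FPKM + 1) scale (vertical axis), with its standard error as a thin line, for 148 of the 149 lncRNA genes, 1 of the higher ones not being drawn, in order along the horizontal axis. Bars run from SEPT5-GP1BB at -2.25 to NFE4 at 2.73, and more bars lie below 0 than above it.

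Abundance was concentrated in few genes. Vehicle means ran from 5.02 to 167 FPKM with a median of 8.91 FPKM, and 15 genes were at 30 FPKM or more. The 10 highest made up 32.0% of the summed FPKM of the set in vehicle, and the 10 highest with HR-19011 made up 33.9%, with 5 genes common to both. The sum itself was 2301 ± 9.32 FPKM in vehicle and 2284 ± 6.88 FPKM with HR-19011 (SD, n = 3). As a share of all summed FPKM this was 0.498% ± 0.0048 and 0.539% ± 0.0055, a difference whose exact two-sided permutation p of 0.1 is the smallest that 3 against 3 libraries can give. The order of the groups depended on the denominator. Without globin and mitochondrial genes the share was 0.649% in vehicle and 0.636% with HR-19011. Of the FPKM of lncRNA rows alone it was 41.5% in vehicle and 30.9% with HR-19011. At the other end, 33 of the 149 were under 5 FPKM with HR-19011, and 80 lncRNAs outside the set reached that level only there. The 5 members nearest the minimum were LINC00534 at 5.02, LOC101927209 at 5.19, WARS2-AS1 at 5.22, LINC00339 at 5.23 and LINC00963 at 5.30 FPKM in vehicle. The nearest outside it were CARD8-AS1 at 4.99, UBA6-AS1 at 4.98, LINC02780 at 4.98, LOC105371227 at 4.91 and MICA-AS1 at 4.84 FPKM. Replicates were close, with a median coefficient of variation of 4.81% in vehicle and 4.26% with HR-19011.

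**Figure D2:**
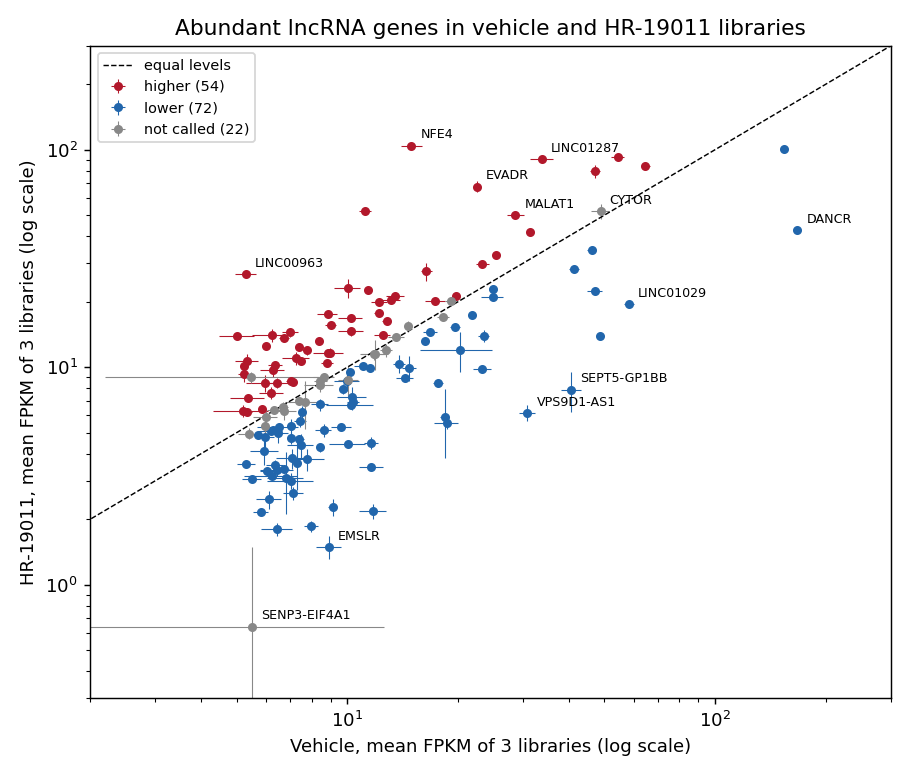
Mean FPKM of 3 HR-19011 libraries (vertical axis, log scale) against the mean of 3 vehicle libraries (horizontal axis, log scale) for 148 of the 149 lncRNA genes, with 1 of the higher ones not drawn, coloured by call and with SD as thin lines, cut off at the frame where they pass it. DANCR lies far below the line of equal levels and NFE4 far above it, at 14.9 and 104 FPKM.

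Among the lncRNAs found in nuclear bodies, MALAT1 and NEAT1 both rose. MALAT1, a nuclear RNA found in speckles rich in splicing factors (chr11:65497738-65506516 in the RefSeq table of GRCh38.p14), was listed at 30.1, 27.0 and 28.8 FPKM in vehicle and at 49.4, 51.0 and 49.4 FPKM with HR-19011. Every treated library was above every vehicle library, a 1.75-fold ratio of means (log2 fold change 0.78, SE 0.041, adjusted p 1.44e-07). NEAT1, the scaffold of paraspeckles (chr11:65422798-65445540), was at 46.6, 45.9 and 48.9 FPKM in vehicle and 85.5, 77.9 and 75.1 FPKM with HR-19011. Its groups were apart by more than their spread, with a 1.69-fold ratio of means (log2 difference 0.74, SE 0.048, adjusted p 6.45e-07). The values do not separate the short form of NEAT1 from the long one.

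Genes for proteins of these bodies were listed beside them. Of 19 paraspeckle and speckle protein genes, 18 fell and 1 rose, with a median log2 fold change of -0.47. Of all tested genes 38.0% were lower, with a median of 0.07, and of coding genes at 5 FPKM or more in vehicle 50.2% were lower, with a median of -0.11. SRSF2, a splicing factor of speckles, fell from 265 ± 5.96 to 106 ± 2.45 FPKM (adjusted p 6.65e-10), and SRSF1, of the same family, fell from 94.1 ± 2.45 to 48.2 ± 0.451 FPKM. SFPQ, a core paraspeckle protein, was at 172, 175 and 178 FPKM in vehicle and at 119, 66.6 and 117 FPKM with HR-19011, so 1 treated library lay well under the other pair (adjusted p 0.00268). NONO, its partner, rose from 191 ± 0.608 to 209 ± 4.92 FPKM, but under TMM its log2 fold change was -0.13 (adjusted p 9.8e-04) and the direction turned.

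NORAD, a cytoplasmic RNA with many Pumilio binding sites (chr20:36045618-36050960), was the third most abundant member. It was listed at 64.9, 62.7 and 66.3 FPKM in vehicle and 84.9, 83.4 and 83.6 FPKM with HR-19011, without overlap (1.30-fold, log2 fold change 0.37, adjusted p 2.03e-06). Genes for its protein partners were listed beside it. KHDRBS1, an RNA-binding protein also called SAM68, fell from 121 ± 2.06 to 94.5 ± 0.596 FPKM, and RBMX fell by 0.12 on the log2 scale. PUM2 did not pass (15.4 ± 0.704 and 15.9 ± 0.555 FPKM, adjusted p 0.365). PUM2 was called as higher on the TPM scale, with a log2 fold change of 0.17, and as lower under TMM, with -0.20.

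The RNA exosome is the complex that trims or destroys RNA from its end, with adaptors that bring nuclear noncoding RNA to it. Of 24 genes for its subunits and adaptors, 18 fell, 4 rose and 2 did not pass, with a median log2 fold change of -0.42, where 38.0% of all tested genes were lower and 46.4% higher, and 50.2% of coding genes at 5 FPKM or more were lower. EXOSC5 fell from 30.6 ± 0.795 to 12.7 ± 0.169 FPKM and EXOSC3 from 39.4 ± 1.09 to 17.6 ± 0.342 FPKM, both subunits of the core. The 4 that rose were EXOSC1, RBM7, ZCCHC8 and ZFC3H1, of which ZFC3H1, an adaptor for polyadenylated nuclear RNA, went from 8.86 ± 0.395 to 11.7 ± 0.172 FPKM (adjusted p 3.32e-05). EXOSC1 and ZCCHC8 did not pass under TMM.

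Members known for small RNAs inside them made up a further group. DANCR, a spliced RNA that carries the small nucleolar RNA SNORA26 in an intron (chr4:52712394-52720697, plus strand), was the most abundant lncRNA of the set in vehicle. It stood at 167, 169 and 167 FPKM in vehicle and at 41.8, 43.2 and 42.5 FPKM with HR-19011. It fell 3.94-fold (log2 fold change -1.95, SE 0.025, adjusted p 7.72e-11) and went from rank 1 to rank 11. SNORA26 itself was at 4.19 ± 1.03 FPKM in vehicle and 1.54 ± 0.506 FPKM with HR-19011, and a library of polyadenylated RNA takes up such short RNAs poorly. EPB41L4A-AS1, which holds SNORA13, moved up instead, from 13.5, 12.7 and 14.3 FPKM to 20.2, 21.6 and 22.0 FPKM (log2 fold change 0.62, adjusted p 2.58e-06). Its SNORA13 was at 2.22 ± 0.916 FPKM in vehicle and 0.801 ± 0.589 FPKM with HR-19011 and passed as lower (adjusted p 0.0139). The groups overlapped, with 3.05, 1.23 and 2.37 FPKM in vehicle and 1.44, 0.681 and 0.281 FPKM with HR-19011. Host and small RNA had opposite signs, but that of SNORA13 rests on these low values. Of 6 members with a small nucleolar RNA in their span, 3 rose, 2 fell and 1 did not pass. The shares over all tested genes were 46.4% higher and 38.0% lower.

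Because DANCR had the highest vehicle level, the RefSeq sequence around its start is shown, from 250 bases before the start to 50 after it (GRCh38.p14, chr4:52712144-52712443, plus strand). None of the motifs searched below lies in it, and 67.7% of its bases are G or C.
DANCR: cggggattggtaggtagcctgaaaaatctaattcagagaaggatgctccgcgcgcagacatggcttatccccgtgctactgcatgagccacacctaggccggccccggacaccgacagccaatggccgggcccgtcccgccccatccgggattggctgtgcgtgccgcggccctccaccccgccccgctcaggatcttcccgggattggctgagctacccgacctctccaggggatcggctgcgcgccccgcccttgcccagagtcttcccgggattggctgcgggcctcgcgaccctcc

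MIR17HG (chr13:91347687-91354577, plus strand) is the precursor of 6 microRNAs, often called oncomir-1 and known as a target of MYC. It fell from 18.9, 17.8 and 18.5 FPKM to 4.29, 5.13 and 8.23 FPKM. The groups lay far apart although 1 treated library stood above the other pair (3.12-fold lower, log2 fold change -1.53, SE 0.17, adjusted p 2.54e-05). The mature microRNAs were not measured by these libraries, and their RefSeq sequences are shown because they group the products by target choice. Capitals mark the seed, bases 2 to 8 from the 5′ end, which pairs with targets.
miR-17-5p: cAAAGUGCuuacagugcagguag
miR-20a-5p: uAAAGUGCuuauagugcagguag
miR-18a-5p: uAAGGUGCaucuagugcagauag
miR-19a-3p: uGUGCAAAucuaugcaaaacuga
miR-19b-3p: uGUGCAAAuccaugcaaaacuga
miR-92a-3p: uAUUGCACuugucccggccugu
The first pair shares 1 seed and the miR-19 pair shares another, while miR-18a-5p and miR-92a-3p each have their own.

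DLEU2 (chr13:49982549-50125541, minus strand) is the host of miR-15a and miR-16-1, which are lost with it in many chronic lymphocytic leukaemias. It fell from 7.83, 6.65 and 6.68 FPKM to 3.53, 4.26 and 3.64 FPKM (1.85-fold lower, log2 fold change -0.74, adjusted p 1.53e-05). The sequences of its products show that they share a seed.
miR-15a-5p: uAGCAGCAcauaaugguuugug
miR-16-5p: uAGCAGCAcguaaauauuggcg
DLEU1, which starts within the span of DLEU2 on the other strand, fell as well, from 11.6 ± 0.535 to 4.49 ± 0.296 FPKM (2.58-fold lower, adjusted p 5.27e-08). PVT1, which lies next to MYC, was at 24.4, 22.9 and 23.2 FPKM and then at 13.4, 13.4 and 14.9 FPKM (log2 fold change -0.72, adjusted p 7.75e-07). MIR4435-2HG rose from 25.4 ± 0.475 to 32.6 ± 0.602 FPKM (log2 fold change 0.35, adjusted p 5.07e-06). CYTOR, a near copy of MIR4435-2HG on the same chromosome, was at 46.0, 51.5 and 49.1 FPKM in vehicle and 52.6, 48.0 and 56.4 FPKM with HR-19011. Its groups overlapped and it did not pass (log2 fold change 0.10, adjusted p 0.163), although without HR-19011 replicate 2 it did (0.16, adjusted p 0.0263). Scaling changed its call: it was lower under TMM (-0.15, adjusted p 0.0442), higher as TPM (0.22, adjusted p 0.0143) and higher with quantile normalization (0.25, adjusted p 0.00595). Reads that fit both copies make these 2 genes uncertain. Of 10 members with a microRNA in their span, 2 rose, 7 fell and 1 did not pass. The shares over all tested genes were 46.4% higher and 38.0% lower, and over the 149 they were 36.9% and 48.3%.

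**Figure D3:**
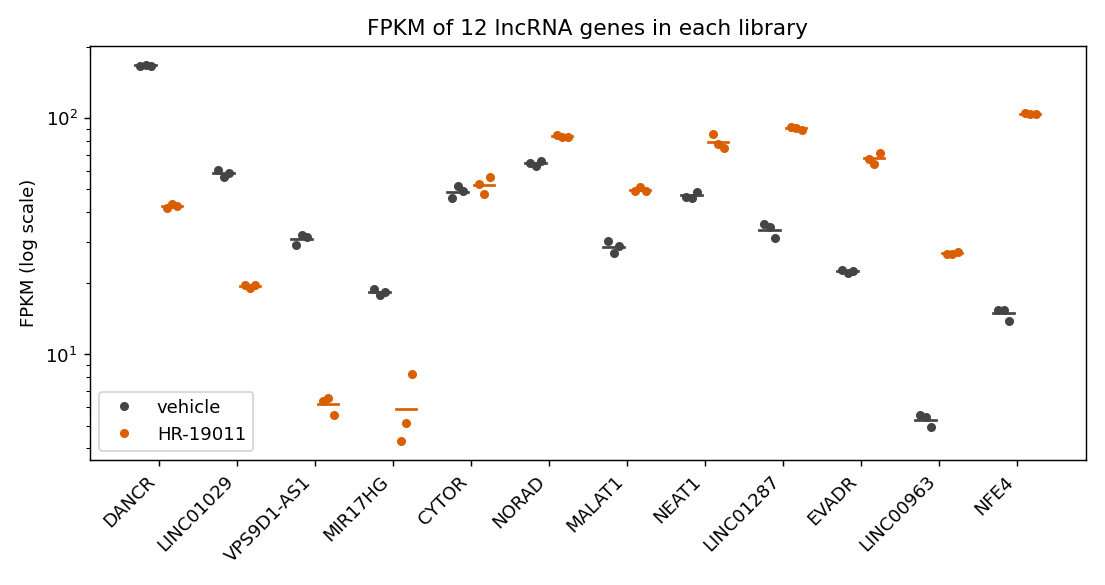
FPKM of 12 lncRNA genes (log scale) in each of 3 vehicle and 3 HR-19011 libraries, 1 point per library, with a line at each mean. The libraries of the 2 groups overlap for CYTOR, and for the other 11 genes they are apart, with NFE4 near 104 FPKM in each treated library.

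The strongest rise belonged to NFE4, named nuclear factor, erythroid 4, a gene known for a protein that helps activate fetal globin and typed as noncoding in the files. It was listed at 15.5, 15.5 and 13.8 FPKM in vehicle and at 105, 104 and 104 FPKM with HR-19011. The treated libraries were all far above the vehicle ones (7.00-fold, log2 fold change 2.73, SE 0.044, adjusted p 1.69e-10), and NFE4 went from rank 38 to rank 1. It lies at chr7:102973430-102988853 within the span of FBXL13, a gene for an F-box protein on the opposite strand in GENCODE annotation. FBXL13 rose too, from 5.47 ± 0.148 to 42.2 ± 0.978 FPKM (7.71-fold, log2 fold change 2.74). No source used here states whether reads of such overlapping genes were assigned by strand. The values of these 2 genes are therefore uncertain, as are those of the antisense pairs below.

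BGLT3, an RNA of the beta-globin locus between the fetal globin genes and the pseudogene HBBP1, went down (chr11:5244554-5245546). It was picked out after its values were seen. It was at 7.00, 6.53 and 5.78 FPKM in vehicle and at 1.93, 1.75 and 1.71 FPKM with HR-19011 (3.58-fold lower, adjusted p 9.33e-08). Its neighbours fell too, HBBP1 from 43.3 ± 1.05 to 3.61 ± 0.432 FPKM and HBG1, a fetal globin gene, from 3349 ± 44.1 to 1312 ± 34.3 FPKM. SEPT5-GP1BB, a readthrough transcript that joins a septin gene to GP1BB, the gene of a platelet receptor subunit, had the lowest log2 fold change of the set (chr22:19717220-19724774). It was at 41.7, 42.5 and 37.8 FPKM in vehicle and at 9.50, 6.23 and 7.92 FPKM with HR-19011 (5.16-fold lower, log2 fold change -2.25, SE 0.12, adjusted p 1.38e-07). Both genes it joins fell, SEPTIN5 from 55.8 to 12.7 FPKM and GP1BB from 29.4 to 6.15 FPKM, and their reads cannot be told apart from those of the readthrough row. Over all tested genes, 46.4% were higher and 38.0% lower. Of 8 readthrough rows in the set, none rose, 4 fell and 4 did not pass. One of the last, SENP3-EIF4A1, was spread widely within a group, with 13.6, 1.21 and 1.72 FPKM in vehicle and 0.175, 0.134 and 1.61 FPKM with HR-19011 (adjusted p 0.0518). It passed as lower without HR-19011 replicate 3 (adjusted p 0.0286), without vehicle replicate 2 (0.0239) and without vehicle replicate 3 (0.0385). All of these fits keep vehicle replicate 1, at 13.6 FPKM. Without that library SENP3-EIF4A1 was under the 1 FPKM filter and was not tested. Its other vehicle values were far under 5 FPKM, so its place in the set rests on that library.

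Members with a LINC symbol, given to RNAs first described as intergenic, numbered 28, of which 11 rose, 10 fell and 7 did not pass. The shares over all tested genes were 46.4% higher and 38.0% lower. In the RefSeq table LINC00963, LINC01006, LINC01089 and LINC01184 overlap a coding gene. LINC00963 rose most, from 5.54, 5.45 and 4.91 FPKM to 26.7, 26.5 and 27.2 FPKM (5.06-fold, log2 fold change 2.14, SE 0.046, adjusted p 6.6e-10). It was thus near the minimum in vehicle and at rank 19 with HR-19011 (chr9:129488660-129513686, plus strand). LINC01287 rose from 35.6, 34.7 and 31.0 FPKM to 92.1, 91.3 and 88.8 FPKM (2.69-fold, adjusted p 1.07e-08), and was at rank 4 with HR-19011 (chr7:153399919-153412234, minus strand). LINC00534 rose from 5.02 ± 0.552 to 13.9 ± 0.316 FPKM and LINC02604 from 6.00 ± 0.0837 to 12.6 ± 0.218 FPKM. Falling members of the class included LINC01029, at rank 4 in vehicle, which went from 60.3, 56.4 and 58.5 FPKM to 19.7, 19.2 and 19.6 FPKM (2.99-fold lower, adjusted p 7.41e-10). LINC00958 fell 2.11-fold, from 47.2 ± 2.2 to 22.3 ± 0.182 FPKM, and LINC01128 fell 1.49-fold to 4.72 ± 0.306 FPKM. The start regions of the LINC pair with the highest changes are shown as those of RNAs that moved up. LINC00963 covers chr9:129488410-129488709, plus strand, and LINC01287 covers chr7:153412185-153412484, minus strand, both in GRCh38.p14.
LINC00963: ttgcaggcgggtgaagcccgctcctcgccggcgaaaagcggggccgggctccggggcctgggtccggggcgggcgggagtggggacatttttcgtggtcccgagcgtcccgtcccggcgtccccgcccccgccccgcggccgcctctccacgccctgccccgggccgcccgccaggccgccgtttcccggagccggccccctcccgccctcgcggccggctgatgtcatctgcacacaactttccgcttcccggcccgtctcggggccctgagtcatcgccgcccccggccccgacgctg
LINC01287: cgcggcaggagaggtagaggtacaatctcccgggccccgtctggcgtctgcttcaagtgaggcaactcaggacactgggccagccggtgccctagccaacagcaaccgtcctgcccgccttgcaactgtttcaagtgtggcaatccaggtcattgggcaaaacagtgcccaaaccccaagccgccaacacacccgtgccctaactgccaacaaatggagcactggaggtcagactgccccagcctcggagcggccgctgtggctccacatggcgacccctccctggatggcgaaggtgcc
No motif searched below lies in either window, and they hold 78% and 63% of G and C bases.

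EVADR, an RNA known to start in an endogenous retroviral repeat, rose from 22.7, 22.2 and 22.6 FPKM to 67.6, 63.8 and 71.5 FPKM, with all treated libraries above the vehicle ones (3.01-fold, adjusted p 2.44e-09). ERVK3-1, named after another endogenous retrovirus and typed as coding in the RefSeq table, fell from 41.3 ± 1.26 to 28.3 ± 0.251 FPKM and was also picked out after its values were seen. LOC102724908, second in both groups, has the symbol ERVE-5 in the RefSeq table. It fell from 155, 152 and 156 FPKM to 101, 101 and 98.7 FPKM (1.54-fold lower, adjusted p 2.83e-08). Beside 46.4% of all tested genes higher and 38.0% lower, the 42 LOC rows had 15 higher and 22 lower, and 5 did not pass. The extremes of this class were LOC105371453, up from 11.2 ± 0.413 to 52.0 ± 1.04 FPKM, and LOC107985733, down from 11.7 ± 0.989 to 2.17 ± 0.176 FPKM. LOC105372218, seventh in vehicle, fell 3.51-fold from 48.6 ± 0.925 to 13.9 ± 0.305 FPKM. LOC105376781, LOC102723692 and LOC105372321 rose between 2.07-fold and 2.31-fold. In LOC107985115, which was also picked out after its values were seen, 1 vehicle library at 1.69 FPKM was far from the others at 7.33 and 7.34 FPKM, and the gene did not pass (log2 fold change 0.80, adjusted p 0.0748). Without that library, vehicle replicate 3, its log2 fold change was 0.26 and passed (adjusted p 0.00246), and it passed at 1.07 without vehicle replicate 1 or 2.

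Other named RNAs also had large falls. EMSLR, whose full name describes an RNA that stabilises the E2F1 messenger, fell 6.00-fold, from 9.69, 8.68 and 8.37 FPKM to 1.69, 1.43 and 1.34 FPKM (adjusted p 1.21e-08), with the groups far apart. CCDC26, a noncoding gene despite its coiled-coil name, fell from 11.7, 10.7 and 12.5 FPKM to 3.31, 3.56 and 3.53 FPKM (3.35-fold lower, adjusted p 2.06e-08). TRG-AS1, opposite the T cell receptor gamma locus, fell from 7.96 ± 0.357 to 1.86 ± 0.114 FPKM, and FAM27B fell from 9.12 ± 0.277 to 2.28 ± 0.202 FPKM. TUG1, which the RefSeq table also types as coding, rose 1.28-fold, from 23.3 ± 0.949 to 29.9 ± 0.124 FPKM (adjusted p 1.55e-05).

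By length and abundance the members split as follows. Of 37 with a genomic span under 5000 bases, 11 rose and 24 fell, with a median log2 fold change of -0.32. Of 54 that span at least 20000 bases, 19 rose and 22 fell, with a median of -0.06. The 15 genes at 30 FPKM or more had 5 higher, 9 lower and a median of -0.53, while the 81 between 5 and 10 FPKM had 30 higher, 38 lower and a median of -0.14. Of all 149, 36.9% rose and 48.3% fell, beside 46.4% and 38.0% of all tested genes. Of coding genes at the same vehicle minimum, 36.5% rose and 50.2% fell. The splits by length and abundance are descriptions of a set whose vehicle levels were used to choose it.

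Members with an antisense symbol, the name of another gene followed by AS and a number, came to 35. Of these 11 rose and 20 fell, beside 46.4% and 38.0% of all tested genes. Of coding genes at the same vehicle minimum, 36.5% rose and 50.2% fell. The symbol does not fix the position: some, such as FOXD2-AS1 and URB1-AS1, overlap no coding gene in the RefSeq table. Together with 5 divergent or intronic members, 40 carried a gene's name, 37 of those genes were in the files and 25 of them were tested. Both genes passed in 18 pairs, in 11 of them with the same direction (2 both higher, 9 both lower) and in 7 with opposite directions. Some of these calls depend on the scaling. Among the 7, CTBP1-DT did not pass under TMM or with quantile normalization, and PSMA3-AS1 did not pass under TMM. NUTM2B-AS1 passed narrowly (adjusted p 0.0498) with overlapping groups, and did not pass as TPM. Among the 11, MRPL20-AS1 and OTUD6B-AS1 did not pass as TPM. The widest gap was at VPS9D1-AS1 (chr16:89711856-89718165, plus strand), an RNA also described as dependent on MYC, inside the span of VPS9D1 on the other strand. VPS9D1-AS1 fell from 29.2, 32.0 and 31.5 FPKM to 6.38, 6.55 and 5.55 FPKM (5.01-fold lower, log2 fold change -2.16, SE 0.06, adjusted p 2.97e-09). VPS9D1, a gene for a protein with a VPS9 domain, rose from 0.794, 0.765 and 0.650 FPKM to 9.74, 8.77 and 9.50 FPKM (12.7-fold, log2 fold change 2.57, adjusted p 8.8e-10). In vehicle the antisense RNA was thus far above the coding gene, and with HR-19011 the order was the reverse in each of the 3 libraries, per length in FPKM.

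**Figure D4:**
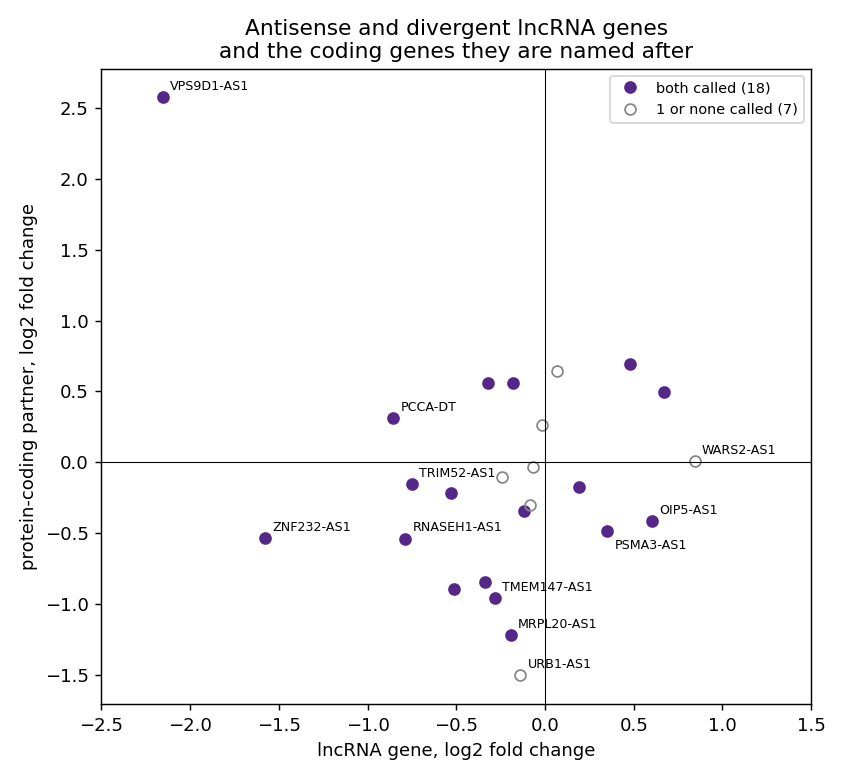
Log2 fold change of the coding gene (vertical axis) against that of the antisense or divergent lncRNA named after it (horizontal axis) for the 25 tested pairs, with filled points where both passed. VPS9D1-AS1 lies far from the other points at the upper left, and 9 filled points lie where both fell.

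The sequence around the start of VPS9D1-AS1 is shown because the pair had the widest gap and because it holds a motif that was searched (GRCh38.p14, chr16:89711606-89711905, plus strand). Capitals mark 2 matches to TGACNNNGC, the core of the antioxidant response element.
VPS9D1-AS1: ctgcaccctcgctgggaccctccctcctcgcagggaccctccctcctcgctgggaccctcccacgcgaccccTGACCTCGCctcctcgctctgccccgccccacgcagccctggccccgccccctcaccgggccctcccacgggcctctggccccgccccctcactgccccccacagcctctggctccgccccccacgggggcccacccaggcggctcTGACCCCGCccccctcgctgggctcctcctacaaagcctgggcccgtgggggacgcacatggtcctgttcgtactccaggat
A start region in the RefSeq table was found for 92 of the 149 members. TGACNNNGC was present on either strand in 13 of these 92, beside 13.6% of all 27305 start regions of that length, and in 7 of 33 members that rose and 4 of 40 that fell. The E-box CACGTG, bound by MYC and related factors, was present in 10 of 92 (7.43% of all), in 5 of the 33 and in 2 of the 40. TGATGNAA, the element of ATF4 with CHOP, was in 2 of 92 (3.67% of all), in none of the 33 and in 2 of the 40. The cyclic AMP element TGACGTCA was in 3 (1.98% of all) and the GATA motif AGATAA in 6 (10.5% of all). The members' windows had a median of 63.7% G and C bases, against 58.3% over all windows, and a match is only a match of letters.

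Other pairs with opposite directions had smaller gaps. OIP5-AS1, the human form of the RNA called cyrano, rose from 13.8, 12.2 and 13.4 FPKM to 20.1, 20.4 and 20.8 FPKM (log2 fold change 0.60, adjusted p 1.7e-06). OIP5, a gene for a centromere protein, fell from 20.5 ± 0.151 to 15.2 ± 0.773 FPKM. PSMA3-AS1 rose from 6.43 ± 0.518 to 8.47 ± 0.485 FPKM while PSMA3, a proteasome subunit gene, fell from 100.3 ± 1.36 to 71.4 ± 1.4 FPKM. Under TMM PSMA3-AS1 did not pass. ARRDC1-AS1 fell from 21.9 ± 0.438 to 17.3 ± 0.504 FPKM while ARRDC1 rose from 8.30 ± 0.488 to 12.7 ± 0.874 FPKM. Pairs that fell together included RNASEH1-AS1 (6.25 ± 1.03 to 3.17 ± 0.0645 FPKM) with RNASEH1, whose enzyme cuts RNA in RNA-DNA hybrids (21.0 ± 0.13 to 14.2 ± 0.46 FPKM). ZNF232-AS1 fell from 18.6 ± 1.37 to 5.56 ± 0.346 FPKM and ZNF232 from 7.28 ± 0.314 to 4.72 ± 0.247 FPKM. PIK3CD-AS2 and PIK3CD rose together, by 0.48 and 0.69 on the log2 scale.

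Pairs were also taken by position. Of 72 overlaps between the span of a member and a coding gene, 49 had both genes tested. Both passed in 30, 20 with the same direction and 10 with opposite ones. These pairs are not independent: the 49 come from 41 members, and some repeat the pairs by symbol. Strand was not used to find overlaps. Pairs with the same direction include the readthrough rows SEPT5-GP1BB and SLMO2-ATP5E with the genes they join. Of 18 members whose start lies within 1000 bases of a coding start on the other strand, 16 pairs were tested and 10 had both passing, 6 with the same direction and 4 with opposite ones. Members that overlap a coding gene had 22 higher and 26 lower of 58. Members that overlap none had 29 higher and 39 lower of 80. Over all tested genes 84.4% passed, 46.4% as higher and 38.0% as lower. TMEM132D-AS1, the fifth in vehicle, rose from 56.1, 55.0 and 51.9 FPKM to 96.5, 89.1 and 92.2 FPKM (1.70-fold, adjusted p 1.44e-07). B3GALT1-AS1 fell from 46.1 ± 1.31 to 34.7 ± 1.3 FPKM, and WARS2-AS1 rose from 5.22 ± 0.0142 to 10.2 ± 0.28 FPKM. LINC00339 rose from 5.23 ± 0.177 to 9.33 ± 0.765 FPKM. LOC101927209 passed narrowly (log2 fold change 0.25, adjusted p 0.0436) and did not pass without vehicle replicate 1 (0.12, adjusted p 0.0936), HR-19011 replicate 2 (adjusted p 0.118) or HR-19011 replicate 3 (adjusted p 0.103).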

How the data were processed

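RNA was measured in K562 cells, 3 vehicle and 3 HR-19011 libraries grouped by sample title. Per the labels' protocols, libraries were made with a stranded mRNA kit. The deposited values are FPKM, normalized by the authors to length and library size per the file headers. StringTie 2.1.3b, HISAT2 2.1.0, SAMtools 1.9, Trimmomatic 0.38 and GRCh38 are listed in the submitters' processing notes. No source used here states how reads on several genes, or on 2 strands, were divided.

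The 11856 genes averaging 1 FPKM or more over 6 libraries were tested on log2(FPKM + 1), which understates changes of low genes, with limma 3.58.1 in R 4.3.3 (mean-variance trend, two-sided, Benjamini-Hochberg over all tested genes, 0.05). All 149 members passed that filter. Folds are ratios of mean FPKM. The fit was tested on simulated data before use. No pair of libraries was a duplicate.

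Members and lists were chosen with earlier results of these data known. Named were the 10 highest in vehicle, the 10 highest and 10 lowest changes without overlap, 15 members fixed by name, those nearest the minimum, up to 3 genes per protein list, and partners by symbol; others are said to be chosen after their values were seen. Of 149 members, 138 matched the RefSeq table by gene identifier. Some genes are not reported here. Alternatives were pseudocounts of 0.1 and 5, other filters, quantile normalization, TPM, TMM, totals set equal after leaving out globin and mitochondrial genes, no trend, the replicate block, each library left out, and other ways of choosing members.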

Additional observations from a re-analysis of the deposited data

How the results depend on the processing

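The median log2 fold change of the 149 lncRNAs (-0.11) was -0.35 under TMM, -0.22 with quantile normalization, -0.00377 as TPM, -0.13 with equal totals without globin and mitochondrial genes, -0.126 and -0.085 with pseudocounts of 0.1 and 5, -0.0578 for the 136 left by a filter at 5 FPKM, and -0.117 to -0.0947 with each library left out. It turned to 0.57 with members chosen on the HR-19011 mean, 0.24 on the mean of 6 libraries and 0.0503 at a vehicle minimum of 2.5 FPKM, and was -0.10 at 10 FPKM and -0.0893 without readthrough rows, a choice added after seeing the data. Genes called higher (55) were 134, 95, 121 and 25 on the HR-19011 mean, on the mean of 6 libraries and at vehicle minimums of 2.5 and 10 FPKM, and 29 without overlap with coding genes, also added after seeing the data. Genes called lower (72) were 41, 60, 104 and 34 in the same order, and 39 without such overlap. These sets differ in size, from 68 to 286. The share of summed FPKM (0.0405 percentage points higher with HR-19011) was 0.0668 without DANCR, -0.0131 without globin and mitochondrial genes and -10.6 of lncRNA rows alone. CYTOR had -0.15 under TMM. Under TMM 0 paraspeckle and speckle protein genes and 2 exosome genes were higher, and as TPM 1 Pumilio and NORAD gene was. The cause of these shifts was not tested. With the replicate number as a block, 55 lncRNAs were higher and 71 lower. Same-numbered libraries did not deviate together (correlations -0.034, -0.0045 and -0.11), so the numbers were not read as pairs. In every fit other than the filter at 5 FPKM, 105 of the 149 were called in 1 direction, 43 higher and 62 lower. HCG11 and UCA1 were called in the opposite direction under TMM. Without depth, counting error cannot be given for members near 5 FPKM.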
